A study of Mus musculus with 4 samples.

Results

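Genes of the integrated stress response, 10 of the 23462 genes matched to a probe, were followed over 4 mouse livers that differed in genotype and diet. They are Atf4, Ddit3, Trib3, Asns, Chac1, Fgf21, Psat1, Phgdh, Sesn2 and Gdf15. The genes were chosen from the known ATF4 pathway with results of these arrays already in view, so their values are given as descriptions and no test is made of them. Liver RNA was hybridised to 4 one-colour Agilent arrays, 1 per group. All groups were male mice on a C57BL/6 background, 24 weeks old. The F/F groups carried a floxed Lpiat1 gene (also called Mboat7) and were labelled without Cre, and the LKO groups carried the same floxed gene together with Alb-Cre. Each genotype was on chow, or on a high fat diet (HFD) given for 18 weeks starting at 6 weeks of age. Lpiat1 encodes the acyltransferase that puts arachidonic acid into phosphatidylinositol. Cre driven by the albumin promoter acts mainly in hepatocytes and can also act in cells of the biliary lineage. Other cells are not targeted, and the deletion was not measured by cell type here. Whether the RNA on an array came from a single mouse or was pooled is not given in the sources used here. With 1 array per group there was no replicate check of any difference below, and no p-value is given.

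The integrated stress response starts when kinases that sense endoplasmic reticulum stress, lack of amino acids, haem deficiency or double-stranded RNA phosphorylate the translation factor eIF2. Most protein synthesis then slows, while the mRNA of the transcription factor ATF4 is translated more, so ATF4 activity is set largely by translation and is not read from the Atf4 mRNA alone. ATF4 turns on genes for amino acid synthesis and transport, redox balance and further regulators, and in the liver it also drives the secreted hormones FGF21 and GDF15.

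ATF4 with a C/EBP partner binds a composite element whose core is often written TGATGNAA, and these letters were looked for on both strands of the RefSeq promoter windows (250 bases before to 50 after each gene start, build GRCm38.p6). All 10 genes had a window. The 8 letters were found in 4 of them (Chac1, Trib3, Asns and Fgf21), beside 4.51% of all 27025 genes with a window. The 3 matches that lie before the gene start are shown with 60 bases each, written 5′ to 3′ in the direction of the gene, with the matched letters in capitals. In Asns the match began 23 bases before the start (minus strand, chr6:7693210-7693269), in Fgf21 139 bases before it (minus strand, chr7:45615596-45615655) and in Chac1 193 bases before it (plus strand, chr2:119351023-119351082). In Fgf21 and Chac1 the letters read on the opposite strand.
Asns: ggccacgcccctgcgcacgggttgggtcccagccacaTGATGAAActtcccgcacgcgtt
Fgf21: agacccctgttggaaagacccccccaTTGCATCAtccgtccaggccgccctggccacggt
Chac1: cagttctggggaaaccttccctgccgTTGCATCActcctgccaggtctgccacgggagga
The match of Trib3 lay after its gene start. A 12-base run that differs from this core was shared by the windows of Trib3 and Psat1 and was in 4 of all 32851 windows. It was picked out after the sequences had been read, and 2 other pairs of the genes shared runs of 13 bases. The run is in capitals below, for Trib3 on the minus strand at chr2:152344061-152344120, starting 33 bases before the gene, and for Psat1 on the minus strand at chr19:15925160-15925219, starting 136 bases before it.
Trib3: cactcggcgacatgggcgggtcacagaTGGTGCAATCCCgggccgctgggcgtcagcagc
Psat1: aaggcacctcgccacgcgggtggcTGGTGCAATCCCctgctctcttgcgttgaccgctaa
A match of letters is a description and not a measured binding site, and the 4 arrays hold no data on binding.

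The 10 genes had 13 probes. Each gene was measured on all 4 arrays by its brightest probe, and 11 of the probes exceeded background clearly on every array. Values named signals are the processed intensity of a probe before arrays were scaled. Differences are on the log2 scale after each array was divided by its 75th percentile, which was 222 (F/F) and 213 (LKO) on chow and 263 (F/F) and 296 (LKO) on HFD, so equal signals on a chow and an HFD array stand for a lower level on HFD. The spread of a difference was taken from 300 probes printed 10 times on each array. Its SD was 0.07 for signals over 500, 0.16 from 50 to 500 and 0.36 under 50, and it covers spot error only, not differences between mice. Counting each probe once per array, these SDs rest on 1104, 40 and 23 values, so those below 500 are less well known. The deleted gene, Mboat7, was 0.27 lower in LKO on HFD and 0.30 lower on chow on the log2 scale, and whether its probe lies in the deleted exons was not determined, so it does not check the labels.

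**Figure D1:**
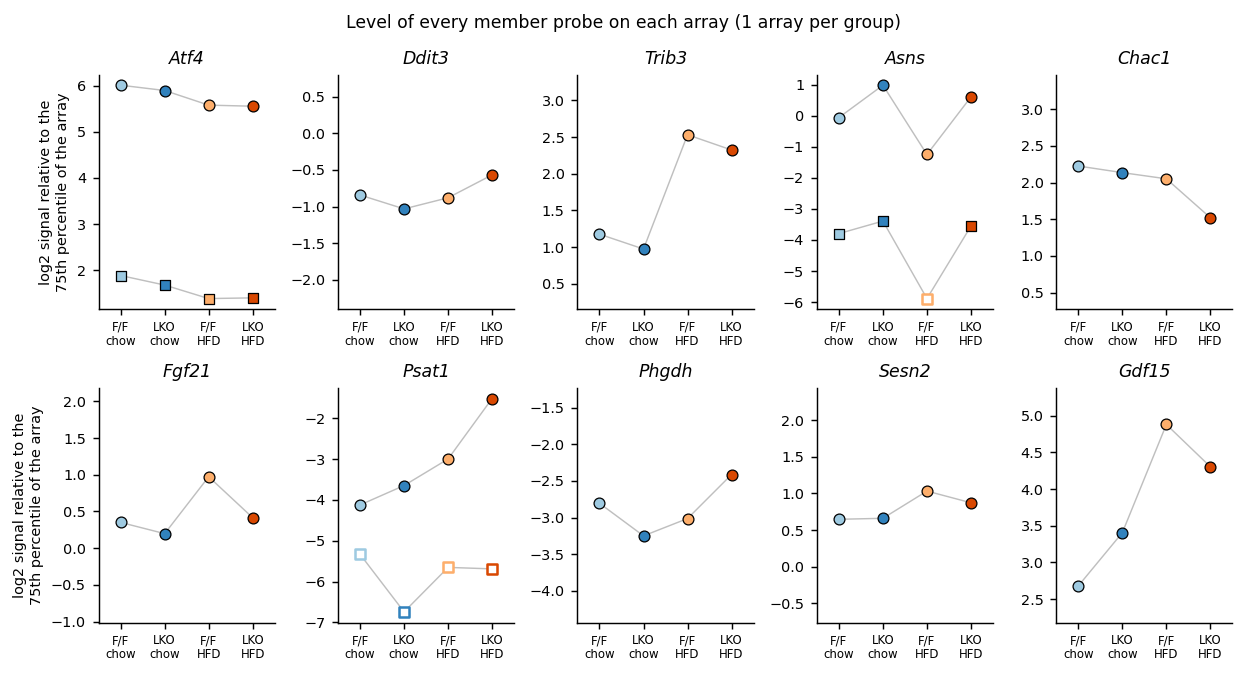
Level of each of the 10 genes on the 4 arrays, as log2 signal relative to the 75th percentile of the array; circles are the brightest probe, squares the second probe, and open symbols are not well above background. Trib3 and Gdf15 stood higher on both HFD arrays than on both chow arrays, Asns was higher in LKO than in F/F on each diet, and Atf4 spanned 0.46 log2 units by its brightest probe.

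Atf4 (chr15:80255184-80257545, GRCm38.p6), the transcription factor at the centre of the response, differed little between genotypes. Its signal was 14317 in F/F chow, 12718 in LKO chow, 12591 in F/F HFD and 13915 in LKO HFD. The differences between LKO and F/F were -0.02 ± 0.07 on HFD and -0.11 ± 0.07 on chow (SD between replicate spots). Both HFD livers were lower than both chow livers, with HFD minus chow at -0.43 in F/F and -0.34 in LKO. The second, dimmer probe of Atf4 gave 0.02 on HFD and -0.21 on chow for the genotypes, and -0.50 and -0.28 for the diet in F/F and LKO. Hepatocyte markers were lower on HFD as well, in 8 of 8 genes in each genotype, with medians of -0.30 in F/F and -0.54 in LKO. In whole liver, fewer cells of a type and less RNA per cell cannot be told apart, and the part of hepatocyte share in the Atf4 values was not tested.

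Ddit3 encodes CHOP, a transcription factor downstream of ATF4 that favours cell death under lasting stress. Its signal was 124 in F/F chow, 104 in LKO chow, 143 in F/F HFD and 200 in LKO HFD, and LKO HFD was the highest of the 4. LKO minus F/F was 0.31 ± 0.16 on HFD and -0.19 ± 0.16 on chow. HFD minus chow was 0.46 in LKO and -0.04 in F/F, the latter within the spot spread.

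Trib3 (chr2:152337425-152344060), a pseudokinase that is an ATF4 target and restrains ATF4 and AKT, was higher on HFD by the same amount in both genotypes. Its signal was 501 in F/F chow, 419 in LKO chow, 1521 in F/F HFD and 1479 in LKO HFD. Both HFD livers lay well above both chow livers, by 2.56-fold in F/F (log2 1.36 ± 0.07) and 2.55-fold in LKO (log2 1.35 ± 0.07). LKO was slightly lower than F/F on both diets, by -0.21 on HFD and -0.20 on chow. The genotype difference on HFD minus that on chow was -0.01, the nearest to 0 among the 10 genes. The genes whose pattern was closest to Trib3 over the 4 arrays, of 13981 measured on all arrays, were Rab23, Cep112 and Kcnj10, with root mean square differences of 0.06, 0.07 and 0.08 log2 units. This likeness rests on 4 arrays and is given as a description.

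Asns (chr6:7675165-7693209), asparagine synthetase, makes asparagine from aspartate and glutamine and is a classical ATF4 target. Its signal was 214 in F/F chow, 423 in LKO chow, 111 in F/F HFD and 452 in LKO HFD. Both LKO livers were higher than both F/F livers, and F/F HFD was the lowest. LKO exceeded F/F 3.62-fold on HFD (log2 1.86 ± 0.16) and 2.06-fold on chow (log2 1.04 ± 0.16). The value on HFD ranked 47th from the highest of 14677 genes measured on both arrays, and that on chow 67th of 14185. Genes at least 2-fold higher in LKO on both diets made up 0.116% of the 14619 genes with a value on both, and Asns was 1 of these 17. On chow the Asns value fell below 2-fold with normexp background correction (0.79) and with both probes averaged (0.72), and then it was not among genes past 2-fold on both diets. In F/F, the HFD liver was 2.28-fold lower than the chow liver (log2 -1.19), whereas in LKO the diets differed by -0.38.

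The dimmer probe of Asns, with signals of 15.98, 20.3, 4.44 and 25.2 in the same order of groups, was not well above background in F/F HFD. It gave LKO as at least 2.69-fold higher than F/F on HFD, where a bound takes the lowest signal called well above background on the dim array, and 0.40 ± 0.36 on chow, below 2-fold. Its diet difference in F/F was at least 2.27-fold lower on HFD and in LKO was -0.16. The 2 probes thus had the same direction in all 4 comparisons. The patterns closest to Asns were those of Tuba8, Serpinb1c and BB123696, at 0.24, 0.26 and 0.27 log2 units, less close than for the other 3 genes whose likeness was taken.

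Asns is also abundant in exocrine pancreas, and markers of that tissue were present in these liver RNAs. Of 13 pancreas markers, 12 stood well above background on all 4 arrays. Ptf1a, the factor that defines the lineage, did so on none. Their summed level, relative to the 75th percentile of each array, was 26.9 in F/F chow, 15.5 in LKO chow, 14.04 in F/F HFD and 51.9 in LKO HFD. On HFD all 12 were higher in LKO, with a median of 1.802, the same direction as Asns. On chow all 12 were lower in LKO, with a median of -1.06, while Asns was higher there. Between diets, all 12 were lower on HFD in F/F, with a median of -0.766, where Asns was lower too (-1.19). All 12 were higher on HFD in LKO, with a median of 2.001, while Asns was lower there (-0.38). The part of pancreas RNA in the Asns values of the 4 comparisons was not tested.

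**Figure D2:**
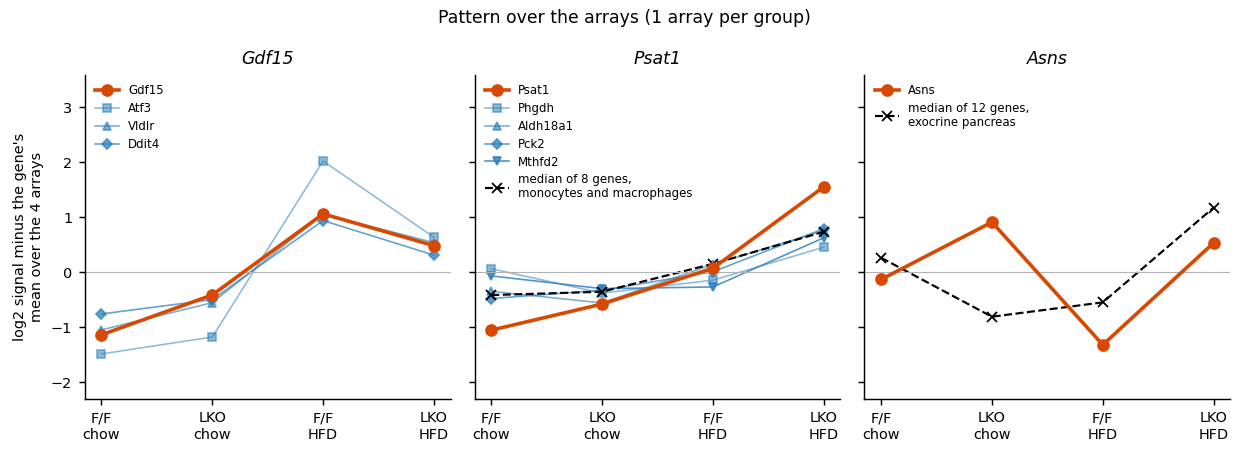
Log2 signal of each gene minus its mean over the 4 arrays, 1 array per group, for Gdf15, Psat1 and Asns (orange). Blue lines are Phgdh and genes picked from the pathway lists with earlier results known, and black dashes are medians of marker lists. Gdf15 ran with Atf3, Vldlr and Ddit4, and the genes drawn with Psat1 and the macrophage median were highest in LKO HFD. Others of the same lists went another way and are not drawn. Among them, Nupr1 was highest in LKO HFD, and Shmt1, Shmt2 and Cth were lower in LKO than in F/F on HFD. The pancreas median ran opposite to Asns from F/F chow to LKO chow.

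Psat1 and Phgdh catalyse steps of serine synthesis from glucose, and both were dim in liver. The signal of Psat1 (chr19:15905123-15925059) was 12.7 in F/F chow, 17.0 in LKO chow, 33.0 in F/F HFD and 104 in LKO HFD, so that LKO HFD stood far above the other 3 arrays. LKO was 2.79-fold higher than F/F on HFD (log2 1.48 ± 0.36, or 0.72 with both probes averaged and 0.74 with normexp background correction), rank 94 of 14677, and 0.48 ± 0.36 higher on chow. HFD exceeded chow in both genotypes, 2.18-fold in F/F (log2 1.13) and 4.39-fold in LKO (log2 2.13). A second Psat1 probe was not well above background on any array, at signals of 1.99 to 5.73, and gives no fold. The genes with the most similar pattern were Havcr2, Lpl and Mapt, at 0.14, 0.15 and 0.15 log2 units.

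Phgdh, the first enzyme of that route, had a signal of 31.8 in F/F chow, 22.5 in LKO chow, 32.6 in F/F HFD and 55.6 in LKO HFD. It was again highest in LKO HFD, and lowest in LKO chow. LKO minus F/F was 0.60 ± 0.36 on HFD and -0.44 ± 0.36 on chow, and HFD minus chow was 0.84 in LKO and -0.21 in F/F. All of these Phgdh values were below 2-fold.

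Markers of monocytes and macrophages moved in the direction of Psat1 and Phgdh on HFD. In LKO against F/F on HFD, 10 of 10 were higher, with a median of 0.77, and on chow 7 of 9 were higher, with a median of 0.12. Their summed level was 63.8 in F/F chow, 69.0 in LKO chow, 99.8 in F/F HFD and 158 in LKO HFD, and 8 of the 10 exceeded background clearly on all arrays. Stellate cell markers were likewise higher in LKO on HFD in 7 of 7 genes (median 0.43) and cholangiocyte markers in 5 of 5 (median 0.64). Exocrine pancreas markers were higher in LKO on HFD too, in 12 of 12 genes with a value (median 1.802). On chow all 12 were lower in LKO (median -1.06), where Phgdh was lower and Psat1 was higher. The part of these cells and of pancreas RNA in the Psat1 and Phgdh values was not tested.

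Chac1, which degrades glutathione, was lowest in LKO HFD. Its signal was 1038 in F/F chow, 938 in LKO chow, 1092 in F/F HFD and 849 in LKO HFD. LKO minus F/F was -0.53 ± 0.07 on HFD and -0.09 ± 0.07 on chow, and HFD minus chow was -0.17 in F/F and -0.62 in LKO.

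Sesn2, a stress-induced regulator that restrains mTORC1 when leucine is low, had a signal of 347 in F/F chow, 337 in LKO chow, 538 in F/F HFD and 542 in LKO HFD. The genotypes lay close together on each diet, at -0.16 ± 0.16 on HFD and 0.01 ± 0.16 on chow. Both HFD livers were above both chow livers, by 0.38 in F/F and 0.21 in LKO.

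Of the secreted hormones, Fgf21, which acts on adipose tissue and brain to change fuel use, had a signal of 283 in F/F chow, 245 in LKO chow, 517 in F/F HFD and 394 in LKO HFD. HFD was higher than chow by 0.62 ± 0.16 in F/F and by 0.22 ± 0.16 in LKO, and LKO was lower than F/F by -0.56 on HFD and -0.15 on chow. Fgf21 is also a PPAR alpha target. Of 10 PPAR alpha target genes, 8 were lower on HFD in F/F (median -0.79) and 9 in LKO (median -0.39), where Fgf21 was higher. Between genotypes on HFD, 5 were higher and 5 lower in LKO (median 0.14), where Fgf21 was lower. On chow 8 were lower in LKO (median -0.29), where Fgf21 was lower too, within its spot SD of 0.16. The part of PPAR alpha in the Fgf21 values was not tested.

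Gdf15 (chr8:70629393-70632470), a hormone that reduces food intake through a hindbrain receptor, had the largest difference among the 10 genes in any comparison. Its signal was 1422 in F/F chow, 2262 in LKO chow, 7757 in F/F HFD and 5842 in LKO HFD. Both HFD livers were above both chow livers, by 4.60-fold in F/F (log2 2.20 ± 0.07), which ranked 57th of 14282 measured genes, and by 0.90 ± 0.07 in LKO. The order of the genotypes differed by diet, with LKO higher on chow (0.73 ± 0.07) and lower on HFD (-0.58 ± 0.07). The genotype difference on HFD minus that on chow was therefore -1.30, with an SD of 0.10 from spot error over 4 arrays. Its closest patterns were those of Rufy4, Vldlr and Atp8b5, at 0.06, 0.09 and 0.11 log2 units. The summed level of red blood cell markers, most of it from the globin genes, was also highest in F/F HFD, at 199 against 101 to 107 on the other 3 arrays. Of 4 markers with a value, 3 were higher on HFD in F/F, Alas2 was lower there (-0.42), and 4 were lower in LKO than in F/F on HFD (median -0.95). On chow their median between genotypes was -0.02, where Gdf15 was higher in LKO. The part of blood in the Gdf15 values was not tested.

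**Figure D3:**
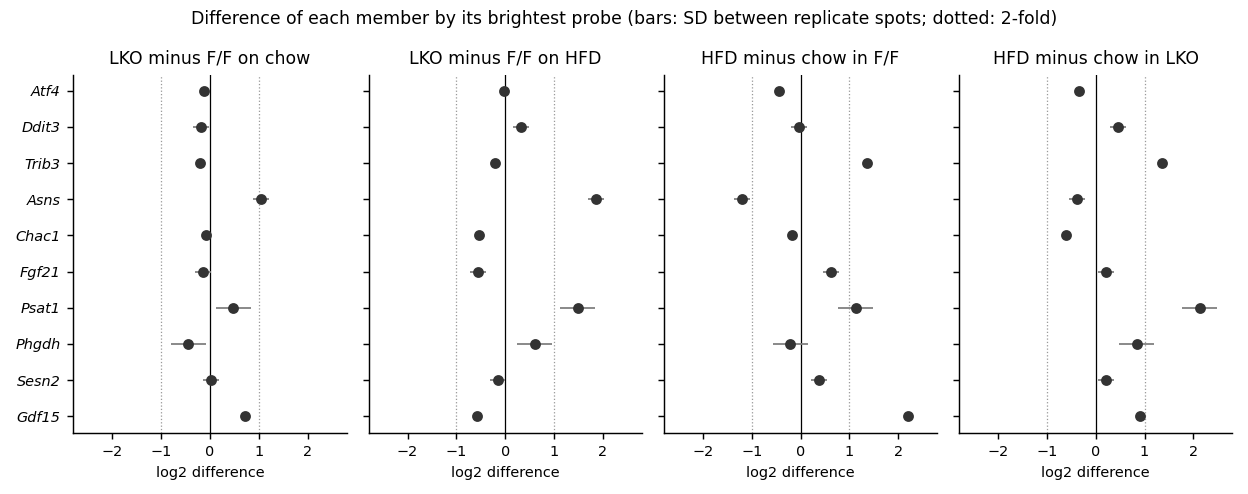
Log2 difference of each of the 10 genes by its brightest probe in the 4 comparisons, with bars of 1 SD between replicate spots (spot error only) and dotted lines at 2-fold. Asns and Psat1 were past 2-fold higher in LKO on HFD, and on HFD against chow in F/F Trib3, Psat1 and Gdf15 were past 2-fold higher and Asns past 2-fold lower.

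As a group, the 10 genes split in direction in each comparison, and the comparisons share arrays, so their counts are not independent of each other. Between genotypes on HFD, 4 were higher and 6 lower in LKO, where 45.9% of all genes were higher, with a median of -0.09 beside -0.03 over all genes. Asns and Psat1 were the 2 genes at least 2-fold higher, where 2.36% of 15528 genes were, and 0 were at least 2-fold lower, where 1.91% were. The call of Psat1 ended with normexp background correction (0.74) and with the mean of its probes (0.72). On chow, 4 were higher and 6 lower in LKO, where 50.7% of all genes were higher, with a median of -0.10 beside 0.00. Asns alone was at least 2-fold higher, where 1.11% of 14981 genes were, and 0 were 2-fold lower, where 1.03% were. The call of Asns on chow ended under the same alternatives (0.79 and 0.72).

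For the diet, more genes were higher in LKO than in F/F, a difference that was not tested. It rests on Ddit3 (-0.04 ± 0.16) and Phgdh (-0.21 ± 0.36), which in F/F were lower on HFD within the spot SD. In F/F, 5 genes were higher and 5 lower on HFD, where 47.8% of all genes were higher, with a median of 0.17 beside -0.02. Trib3, Psat1 and Gdf15 were at least 2-fold higher, against 5.21% of 15358 genes, and Asns was at least 2-fold lower, against 2.94%. Normexp ended the calls of Psat1 (0.17) and Asns (-0.91) in F/F, and averaging the probes of Psat1 ended its call too (0.40). In LKO, 7 were higher and 3 lower, where 43.5% of all genes were higher, with a median of 0.34 beside -0.07. Trib3 and Psat1 were at least 2-fold higher, against 8.12% of 15242 genes, and 0 were 2-fold lower, against 4.07%. Normexp ended the call of Psat1 there as well (0.68). The change of the genotype difference from chow to HFD was largest upward for Phgdh (1.04), Psat1 (1.01), Asns (0.81) and Ddit3 (0.50), and downward for Gdf15 (-1.30), Chac1 (-0.44), Fgf21 (-0.41) and Sesn2 (-0.17), with Atf4 at 0.09.

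**Figure D4:**
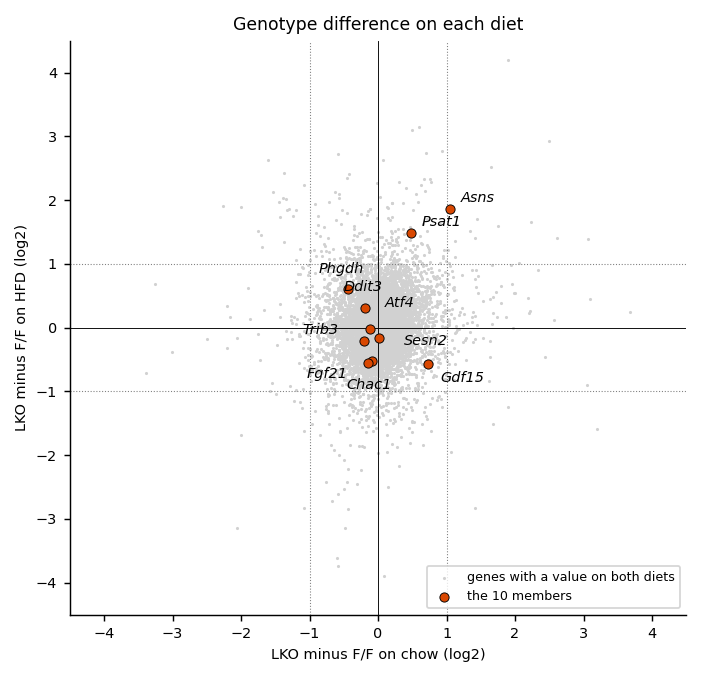
LKO minus F/F on chow (x axis) against HFD (y axis), both log2, for genes with a value on both diets (grey) and the 10 stress response genes (orange), with dotted lines at 2-fold. Asns lay beyond 2-fold on both axes, Psat1 on HFD only, and Gdf15 was positive on chow and negative on HFD.

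Other genes, 101 in 10 lists, were read in the same way. They cover the pathway and related stress genes, with 10 PPAR alpha targets and 8 p53 targets, which belong to other regulators. Over all lists, 1 gene was at least 2-fold higher and 1 lower in LKO on HFD, of 97 with a value, and 1 and 2 on chow, of 95. On HFD against chow, 7 were higher and 7 lower in F/F, of 96, and 9 and 4 in LKO, of 96, to be read beside the shares of all genes given above. The gene higher in LKO on HFD was the p53 target Cdkn1a. The 2 lower in LKO on chow and 5 of the 7 lower on HFD in F/F were PPAR alpha targets. Upstream, the 16 genes of the eIF2 kinases and eIF2 machinery held none past 2-fold in any of the 4 comparisons, with medians of -0.09 and -0.01 for the genotypes on HFD and chow. Eif2ak3, the kinase PERK, had signals of 278 and 268 on chow and of 349 and 598 on HFD, F/F before LKO, and was 0.61 higher in LKO on HFD. Ppp1r15a, which directs dephosphorylation of eIF2, was lower in LKO on HFD (-0.50) and on chow (-0.41).

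Among 5 stress transcription factors, Atf3 and Nupr1 were at least 2-fold higher on HFD in each genotype. Atf3, an early stress-induced repressor, had signals of 86.9 in F/F chow, 103 in LKO chow, 1175 in F/F HFD and 505 in LKO HFD. It was 11.4-fold higher on HFD in F/F and 3.52-fold higher in LKO, and 2.62-fold lower in LKO than in F/F on HFD. As with Gdf15, both HFD livers were above both chow livers, and F/F HFD was the highest. Nupr1, a stress-induced chromatin regulator, differed from that order, at 0.85 higher in LKO on HFD and 0.11 on chow.

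Vldlr and Ddit4 were the other ATF4 targets at least 2-fold higher on HFD in F/F, 2 of the 11 with a value, where 5.21% of all genes were. Vldlr, a lipoprotein receptor, had signals of 80.0 (F/F) and 108 (LKO) on chow and of 409 (F/F) and 321 (LKO) on HFD. Ddit4, an mTORC1 inhibitor, had 3417 and 3939 on chow and 13177 and 9571 on HFD, F/F before LKO. In both, as in Gdf15, LKO was higher than F/F on chow (0.50 and 0.26) and lower on HFD (-0.52 and -0.63). The same list held Cth, the cystathionine lyase of cysteine synthesis, at -1.32 for HFD minus chow in LKO. Pck2, the mitochondrial phosphoenolpyruvate carboxykinase, was at 1.12 in that comparison. Between genotypes, Pck2 was 0.78 higher in LKO on HFD, where Psat1 was higher too. On chow it was 0.15 higher in LKO, within the spot SD of 0.16.

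Of the 8 genes of serine, glycine, one-carbon and proline synthesis beside Psat1 and Phgdh, 6 had a value between genotypes on HFD. These 6 split into 4 higher and 2 lower in LKO, with a median of 0.25, and none passed 2-fold. The 2 that were lower, Shmt1 (-0.23) and Shmt2 (-0.30), which interconvert serine and glycine, were also lower on HFD than on chow in LKO. For HFD minus chow in LKO, the median of all 6 genes was 0.71. Aldh18a1, which starts proline synthesis, had signals of 17.6 and 14.6 on chow and of 29.4 and 50.5 on HFD, F/F before LKO, and was 0.61 higher in LKO on HFD. Mthfd1l, a mitochondrial folate enzyme, was not well above background in F/F chow, so that LKO chow was at least 2.89-fold and F/F HFD at least 4.38-fold higher than it. Mthfd2, a folate enzyme named after its values had been seen, had signals of 13.8 and 11.3 on chow and of 14.2 and 29.7 on HFD, F/F before LKO, highest in LKO HFD like Psat1 and Phgdh, and was 0.90 higher in LKO on HFD.

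Amino acid transporters were split between genotypes. Among 7 with a value, 3 were higher and 4 lower in LKO on each diet, with medians of -0.17 on HFD and -0.12 on chow, and the median on HFD turned to 0.019 among genes measured on all arrays. Slc1a5, a glutamine transporter, was higher in LKO on both diets as Asns was (0.67 and 0.60), as was the glycine transporter Slc6a9 (0.24 and 0.26), both named after their values had been seen. Slc1a4, a transporter of small neutral amino acids, was 2.04-fold lower on HFD in F/F and 2.75-fold lower in LKO, and Slc7a1, a transporter of basic amino acids, was 3.14-fold higher in LKO. The 13 genes of the cytosolic tRNA synthetase list held none past 2-fold in any comparison, and the widest differences between genotypes on HFD in it included Aars at -0.51 and Mars1 at -0.20.

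Chaperones and degradation factors of the endoplasmic reticulum were mostly lower on HFD, and mostly lower in LKO. On HFD, 10 of 13 were lower than on chow in F/F (median -0.36) and 13 of 13 in LKO (median -0.57), and in LKO against F/F 10 of 13 were lower on HFD (median -0.29) and 12 of 13 on chow (median -0.10). Hepatocyte markers went the same way on HFD, with 7 of 8 lower in LKO than in F/F (median -0.23) and 8 of 8 lower than on chow in each genotype, but on chow 3 of 8 were lower in LKO (median 0.01). The part of hepatocyte share in the chaperone values was not tested. Creld2, a stress-induced chaperone, was 2.37-fold lower on HFD in F/F and 2.12-fold lower in LKO. The 7 mitochondrial stress genes held none past 2-fold, with Oma1 at -0.32 and Dele1, its substrate that relays mitochondrial stress to eIF2, at -0.26 between genotypes on HFD.

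Fgf21 and Gdf15 also answer to other regulators, whose known targets were read as lists. The PPAR alpha targets Acot1, Pdk4, Cyp4a10, Cyp4a14 and Ehhadh were 4.44-, 4.74-, 3.19-, 2.37- and 2.92-fold lower on HFD in F/F. On chow, 8 of the 10 PPAR alpha targets were lower in LKO, with Ehhadh at -1.08 and Pdk4 also past 2-fold. Gdf15 is also a p53 target, and of 8 p53 targets 6 were higher on HFD in F/F (median 0.51) and 8 in LKO (median 0.75), and Gdf15 was higher in both. Between genotypes on HFD, 6 of 8 were higher in LKO (median 0.19), where Gdf15 was lower. On chow 3 were higher and 4 lower in LKO (median -0.06), where Gdf15 was higher. Phlda3, a p53-induced inhibitor of AKT, was 2.28-fold higher on HFD in F/F and 3.22-fold higher in LKO. Eda2r, a p53-induced receptor, was not well above background on chow and at least 3.65-fold and 2.78-fold higher on HFD in F/F and LKO. Cdkn1a, the cell cycle inhibitor p21, was 2.14-fold higher on HFD in LKO than in F/F, where Gdf15 was lower, and in F/F its HFD minus chow difference was -0.63, where Gdf15 was higher. The part of p53 in the Gdf15 values was not tested.

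**Figure D5:**
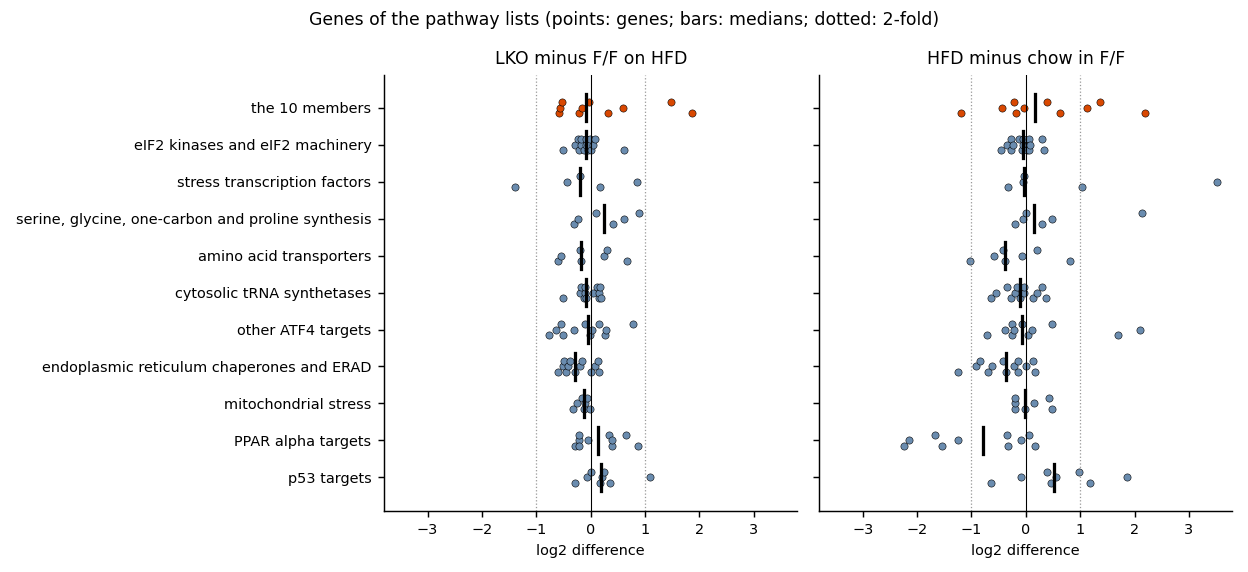
Log2 difference of each gene of the 10 pathway lists (points, with the 10 stress response genes on top in orange), for LKO minus F/F on HFD (left) and HFD minus chow in F/F (right); bars are medians and dotted lines 2-fold, 1 array per group. The medians of the genotype comparison lay between -0.29 and 0.25, and the PPAR alpha targets had the lowest median of the diet comparison, -0.79.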

How the data were processed

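Liver RNA of 4 groups was measured on Agilent SurePrint G3 mouse arrays. The authors deposited spot intensity values processed with Agilent Feature Extraction (version 12.0.3.1 in the submitters' processing notes), after background subtraction, with flags for outliers and for signals well above background. A second deposited table holds the same values, in which each array's intensity is multiplied by 1 factor of unstated origin. Processed signals were put on the log2 scale and the array's 75th percentile, over 59305 non-control spots, was subtracted (Python 3.11.15, pandas 2.3.3, numpy 2.4.6), and spots of a probe were averaged without outliers. Between 53.0% and 57.0% of spots were well above background, and none was saturated. Of 56605 probes, 33767 (59.65%) matched a RefSeq gene by transcript accession. The array header names build mm9, so no probe position is given. The brightest probe over the 4 arrays stands for a gene. A probe not well above background on 1 array of a pair gives a bound, on both no value. Calls are 2-fold differences with no test, and the number of arrays limits the precision. The SD between spots came from probes printed 10 times. Calculations were tested on simulated data.

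The genes and lists were chosen with earlier results of these data known. Named genes are the 10 genes, the genes of a list past 2-fold in any comparison or else the 2 with the largest genotype difference on HFD, and the 3 genes most alike in pattern to each of the 10 that spans at least 1 log2 unit. The 10 marker lists covered hepatocytes, monocytes and macrophages, T cells, B cells, stellate cells, endothelium, cholangiocytes, exocrine pancreas, red blood cells and proliferation. Alternatives were normexp background correction (offset 50, limma 3.58.1), quantile normalization, percentiles over other probes, the deposited table, other filters on dim probes, averaging a gene's probes, and calls at 1.5-fold or 4-fold. The labels and the methods text differ in the RNA kit they name.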

Additional observations from a re-analysis of the deposited data

Results flagged for a closer look

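For 3 of the 10 genes, the LKO and F/F livers differed in opposite directions on the 2 diets by more than 1 spot SD on each. Sesn2 also had opposite signs (0.01 on chow and -0.16 on HFD), both within its spot SD. With 1 array per group these differences were not tested, and the SD beside each covers spot error over the 4 arrays only. In Gdf15, LKO minus F/F was 0.73 on chow and -0.58 on HFD, a difference of -1.30 log2 units against an SD of 0.10. In Phgdh, it was -0.44 on chow and 0.60 on HFD, a difference of 1.04 against an SD of 0.51. In Ddit3, it was -0.19 on chow and 0.31 on HFD, a difference of 0.50 against an SD of 0.23. Over the processing alternatives, Gdf15 ranged from 0.69 to 0.73 on chow and from -0.60 to -0.53 on HFD. Phgdh ranged from -0.48 to -0.08 on chow and from 0.19 to 0.65 on HFD. On both diets its value nearest 0 was within its spot SD of 0.36. Ddit3 ranged from -0.23 to -0.08 on chow and from 0.21 to 0.36 on HFD. On chow its value nearest 0 was within its spot SD of 0.16.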

How the results depend on the processing

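No paired analysis was possible because each group has 1 array. With 1 array per group, spot error is the only spread known, and differences between mice are not covered. Of the values of the 10 genes under 8 alternatives, 282 moved by less than the spot SD, 37 moved by more, and 1 turned. The 1 that turned was Psat1 between genotypes on chow, which became -0.47 when its probes were averaged. The average takes in its second probe, not well above background. Here and below, a value turned if its sign changed and the main value was larger than the spot SD. Smaller values that changed sign were not counted as turned. These were Atf4 between genotypes on HFD (-0.09 to 0.02), Sesn2 between genotypes on chow (-0.02 to 0.04) and Ddit3 for the diet in F/F (-0.11 to 0.10). Over the alternatives Asns in LKO minus F/F ranged from 1.46 to 2.10 on HFD and from 0.72 to 1.04 on chow, Psat1 on HFD from 0.72 to 1.53, Trib3 on HFD minus chow from 1.25 to 1.49 in F/F and from 1.28 to 1.497 in LKO, and Gdf15 in F/F from 2.20 to 2.34. Normexp, which adds an offset and so shrinks dim genes, and the mean of probes each left 1 of the 10 genes at least 2-fold higher in LKO on HFD and 0 on chow, so 0 on both diets. Normexp also left 0 lower on HFD in F/F and 1 higher in LKO, with group medians for the diet of 0.038 in F/F and 0.179 in LKO. The deposited table moved the median of all genes for HFD minus chow to 0.10 in F/F and 0.06 in LKO, from -0.03 and -0.09, over genes measured on all arrays. Diet differences given above are lower by about that shift, and with that table the medians were 0.309 and 0.487 for the 10 genes, 0.059 and 0.026 for the 101 list genes, the last of which turned, and 0.111 and 0.072 for all genes with a value.

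At 4-fold, 0 of the 10 genes were higher in LKO on HFD, on chow or on both diets, in F/F 1 was higher on HFD and 0 were lower, and 1 was higher in LKO. At 1.5-fold, 2 were higher in LKO on chow, and on HFD in LKO 4 were higher and 1 lower. Of the list genes, whose 2-fold counts stand above, 1.5-fold gave 9 higher and 5 lower in LKO on HFD, 2 and 5 on chow, 14 lower on HFD in F/F, and 17 higher and 13 lower in LKO. At 4-fold the list genes gave 0 higher and 0 lower on HFD and on chow between genotypes, 3 and 2 for the diet in F/F, and 0 and 0 in LKO. Between genotypes on chow, list genes past 2-fold were 0 higher and 1 lower with normexp, 1 lower with quantile normalization, 2 higher without a filter and 0 higher among genes measured on all arrays. For the diet, normexp gave 3 higher in F/F, and 3 higher and 2 lower in LKO. Quantile normalization, the percentile over probes well above background and the deposited table each gave 2 lower in LKO, and the list median there was -0.015 with quantile normalization.

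List medians that turned were those of the amino acid transporters between genotypes on HFD (0.019 among genes measured on all arrays), the tRNA synthetases for the diet in F/F (0.029 with the deposited table), and for the diet in LKO the eIF2 genes (0.017 with quantile normalization, 0.026 with the deposited table) and the other ATF4 targets (0.055 with quantile normalization, 0.040 with the deposited table, 0.0335 without a filter). The cause was not tested for results other than those named as set by construction.

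Over all genes, counts higher and lower past the threshold moved by construction with the threshold and the filter. Normexp gave 94 and 85 in LKO on HFD, 20 and 19 on chow, 211 and 147 for the diet in F/F, 428 and 239 in LKO, and 3 higher on both diets. Without a filter they were 996 and 889, 672 and 807, 1366 and 1351, 1912 and 1508, and 98, with diet medians of -0.12 in F/F and -0.21 in LKO. Among genes measured on all arrays they were 199 and 170 on HFD, 76 and 75 on chow, and 9 on both diets. At 1.5-fold they were 1253 and 944, 527 and 519, 2033 and 1474, 2347 and 1789, and 116. At 4-fold they were 53 and 54, 42 and 33, 136 and 94, 209 and 116, and 1.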

Other observations

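Marker lists not set beside a gene above gave these medians for LKO minus F/F on HFD, LKO minus F/F on chow, HFD minus chow in F/F and HFD minus chow in LKO. T cell markers gave 0.76, -0.19, -0.34 and 0.50. B cell markers gave 0.37, -0.04, 0.39 and 0.80. Endothelial markers gave 0.11, 0.08, 0.45 and 0.24. Red blood cell markers gave 0.82 and -0.04 for the diet in F/F and LKO. Proliferation markers gave 0.60, 0.33, 1.24 and 1.51.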
